A study of Fragaria vesca with 12 samples.

Results

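The genes of glycolysis and fermentation were followed in ripe strawberry fruit of the genotype Mara des Bois (Fragaria vesca) that had been stored in different ways. A gene was taken as a member when its Rosaceae description named alcohol dehydrogenase, pyruvate decarboxylase, lactate, aldehyde dehydrogenase, alanine aminotransferase, hypoxia, hemoglobin, pyruvate kinase, phosphofructokinase, enolase or glyceraldehyde-3-phosphate, and did not name cinnamyl. By this rule 105 of the 34008 genes in the expression table were members: 25 alcohol dehydrogenases, 4 pyruvate decarboxylases, 8 genes with the word lactate, 21 aldehyde dehydrogenases, 1 alanine aminotransferase, 3 hypoxia-responsive genes, 2 hemoglobins, 11 pyruvate kinases, 11 phosphofructokinases, 8 enolases and 11 glyceraldehyde-3-phosphate dehydrogenases (GAPDH). The species is given as in the labels. The name Mara des Bois is also used for a polyploid garden strawberry, and ploidy was not examined here: in a polyploid, the RPKM of a gene would merge the reads of its homoeologous copies. The words of the rule also caught genes outside the pathway. Of the 25 alcohol dehydrogenases, 6 were described as Myb/SANT-like transcription factors, and 2 of the 8 lactate genes were small subunits of acetolactate synthase.

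Messenger RNA was sequenced in 4 conditions with 3 biological replicates each, every replicate being a pool of many whole fruits. CO2-cold stored fruit (CCS) was held for 7 days at 1 °C, at first for 2 days under 18% CO2, 18% O2 and 64% N2 and then for 5 days in air, and was moved to 20 °C for 1 day. Air-cold stored fruit (ACS) had the same cold storage and the same day at 20 °C but stayed in air, non-cold stored fruit (NCS) spent 2 days at 20 °C and 80% relative humidity, and fruit after harvest (AH) was sampled 2 hours after picking. CCS and ACS fruit each came from 1 container, so the gas and the container cannot be told apart, and CCS was sampled days after the high CO2 had been vented. Temperature and time also differ together between cold stored fruit and NCS.

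Glycolysis splits hexoses into pyruvate, with phosphofructokinase as an early committed step and pyruvate kinase as the last one, and GAPDH as the step that reduces NAD. When oxygen is short, plant cells regenerate NAD by fermentation: pyruvate decarboxylase turns pyruvate into acetaldehyde and alcohol dehydrogenase reduces it to ethanol, while lactate dehydrogenase makes lactate and alanine aminotransferase makes alanine from the same pyruvate. In strawberry fruit, acetaldehyde and ethanol are also precursors of the ethyl esters of the aroma, and both are known to build up under very high CO2.

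Expression is given as RPKM (reads scaled to gene length and library size), and whole reads could be recovered from these values, with 64.2 M to 119.9 M reads per library, so that 10 reads on a gene of median length stood for 0.0319 to 0.0596 RPKM. Differences are log2 fold changes of log2(RPKM + 0.1) with the standard error (SE) and the limma adjusted p, a scale that understates changes of genes near 0. "Passed the test" stands for an adjusted p not above 0.05, and a differentially expressed gene (DEG) also moved by 1.5 log2 units or more. Powder of whole fruit can hold flesh, achenes and green tissue, and genes were listed for each by words of their description. The achene or seed list held 176 genes, of which 108 matched late embryogenesis. The paper describes late embryogenesis proteins as protective under adverse conditions, and whether the listed genes are confined to achenes was not examined. Their summed level was 7800 to 9570 RPKM in CCS, 9030 to 10900 RPKM in ACS and 8150 to 8290 RPKM in NCS, against 14900 to 16200 RPKM in AH. Of these genes 20 were at 0 throughout. The 25 green tissue genes summed to 15.6 to 20.7 RPKM in CCS, 12 to 16 RPKM in ACS and 8.4 to 9.77 RPKM in NCS, against 30.0 to 39.3 RPKM in AH. The flesh list of 12 genes summed to 1080 to 1160 RPKM in CCS, 934 to 1000 RPKM in ACS and 1180 to 1210 RPKM in NCS, against 923 to 1020 RPKM in AH. CCS and NCS lay above ACS and AH without overlap. Nearly all of the sum came from leucoanthocyanidin dioxygenase and dihydroflavonol reductase genes, and no gene matched chalcone synthase. The expansin A2 genes summed to 0.721 to 0.992 RPKM in CCS, 0.99 to 1.25 RPKM in ACS and 0.082 to 0.141 RPKM in NCS, against 0.145 to 0.195 RPKM in AH. Both the achene and the green sums were highest in AH. In the achene list this lay mostly in the 59 genes matching seed storage and 2S albumin. These summed to 10100 to 11700 RPKM in AH, against 4870 to 5960 RPKM in stored fruit. In the late embryogenesis genes and the oleosins the sums of ACS and CCS overlapped AH, and those of NCS lay below it. The part of these lists in the differences of stored fruit from AH was not tested. In whole fruit, fewer cells of a type and less RNA per cell cannot be told apart.

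Of the 105 members, 80 reached 0.5 RPKM in at least 3 of the 6 libraries of a comparison and were tested in at least 1 of the 6 comparisons, 77 of them in all 6. The other 25 were below this level in every comparison, none of them above 0.424 RPKM in any library except FvH4_7g25530, and none of the 105 was at 0 in every library. Low members included 8 of 11 GAPDH genes, 4 of 8 enolases and 5 of 25 alcohol dehydrogenases. DEGs in any comparison numbered 5 among the members, and 75 members were tested and never a DEG. The share of all genes that were DEGs in any comparison was not counted, and the shares of single comparisons are given below. The 5 members were 3 neighbouring aldehyde dehydrogenases of type 2C4, a phosphofructokinase 3 and a GroES-like alcohol dehydrogenase. Members described in addition to these 5 and to the 2 most abundant of each group were chosen after their values were seen.

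Against harvest, members passed the test in both directions in each kind of storage, and few were DEGs, as among all genes. The numbers passing were not tested against each other. In CCS against AH, 14 of 78 tested members were higher and 14 lower, or 35.9% in all, with 37.5% of all 16622 genes passing the test (23.6% higher and 13.9% lower), and 1 member was a DEG (6.62% of all genes). In ACS against AH, 23 of 80 were higher and 28 lower, or 63.8% in all, with 42.8% of all 16672 genes passing (21.9% higher and 20.9% lower), and 5 members were DEGs (8.55% of all genes). In NCS against AH, 21 of 79 were higher and 13 lower, or 43.0% in all, with 36.1% of all 16092 genes passing (14.7% higher and 21.4% lower), and 5 members were DEGs (6.34% of all genes). These 3 comparisons share the AH libraries. The median log2 fold change of the members was -0.02 in CCS, -0.05 in ACS and 0.04 in NCS, where that of all tested genes was 0.07, 0.01 and -0.07 in the same order. With median-of-ratios scaling the split of higher and lower members was 10 and 23 for CCS and 26 and 7 for NCS. Of all genes that passed, 62.9% were higher unscaled and 52.6% scaled in CCS, and 40.7% unscaled and 49.9% scaled in NCS. The count of lower members was 7 without AH replicate 2, 6 without CCS replicate 2 and 8 without CCS replicate 3 for CCS against AH. For NCS against AH it was 8 without AH replicate 2, 7 without NCS replicate 1 and 6 without NCS replicate 2 or 3, and the count of higher members was 13 without NCS replicate 1 or 3.

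**Figure D1:**
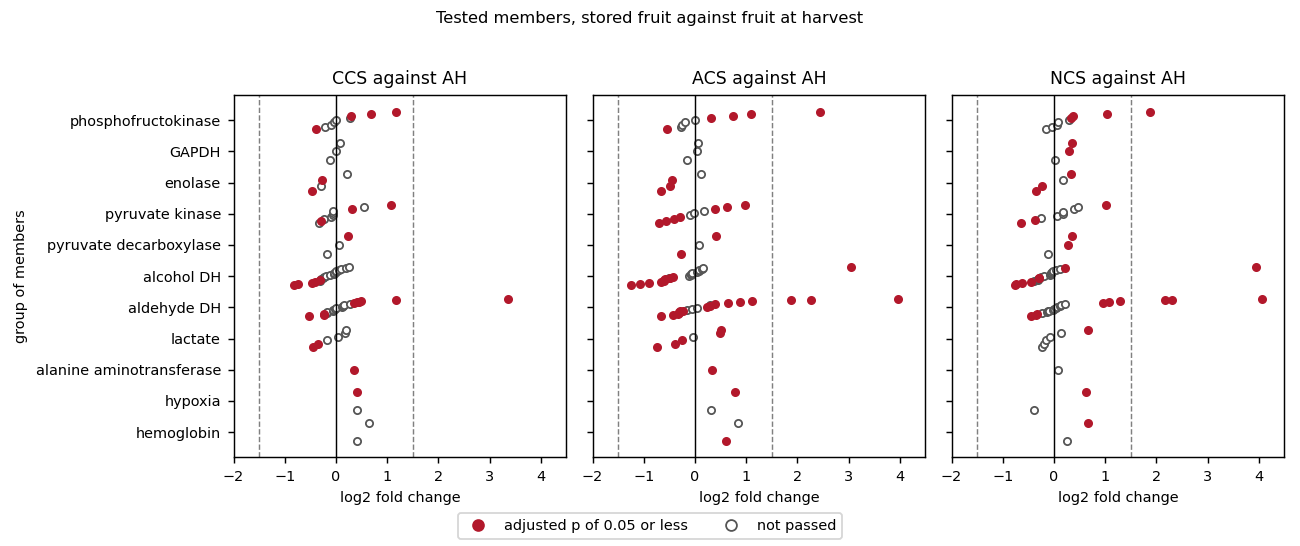
Log2 fold change (horizontal axis, log2(RPKM + 0.1) scale) of each tested member, by group of members (rows), for CCS, ACS and NCS, each against AH; filled points passed the test, open points did not, and dashed lines mark a log2 fold change of 1.5 in size. Of the tested members, 74 of 78 in CCS, 71 of 80 in ACS and 70 of 79 in NCS lay within 1 log2 unit of AH (94.9%, 88.8% and 88.6%, where the shares of all genes were 88.1%, 85.7% and 88.0%), and the points beyond the dashed line were 1, 5 and 5 members.

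Between the stored conditions, many members passed the test but few differences were large, as among all genes. In CCS against ACS, 19 of 80 members were higher and 14 lower, or 41.2% in all, with 28.7% of all 16680 genes passing (18.4% higher and 10.3% lower), and 1 member was a DEG (0.318% of all genes). In CCS against NCS, 16 of 80 were higher and 29 lower, or 56.2% in all, with 51.6% of all 16405 genes passing (37.6% higher and 14.0% lower), and 1 was a DEG (3.73% of all genes). In ACS against NCS, 11 of 80 were higher and 34 lower, or 56.2% in all, with 48.0% of all 16341 genes passing (30.9% higher and 17.1% lower), and none was a DEG (3.33% of all genes). In ACS against NCS the median member stood at -0.15 where the median gene stood at 0.08. Median-of-ratios scaling moved the median of all genes in CCS against NCS by 0.13 and turned the split of members to 6 higher and 38 lower. Of all genes that passed in CCS against NCS, 72.9% were higher unscaled and 50.3% scaled. In CCS against ACS the scaling turned the split to 8 higher and 17 lower, so the larger count of higher members did not hold. All genes shifted too: of those that passed in CCS against ACS, 64.2% were higher unscaled and 42.1% scaled. The higher count in CCS against ACS was also 10 without ACS replicate 1, 8 without ACS replicate 2, 8 without CCS replicate 2 and 11 without CCS replicate 3. That of CCS against NCS was 10 without CCS replicate 1, 9 without CCS replicate 2 and 10 without NCS replicate 1.

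**Figure D2:**
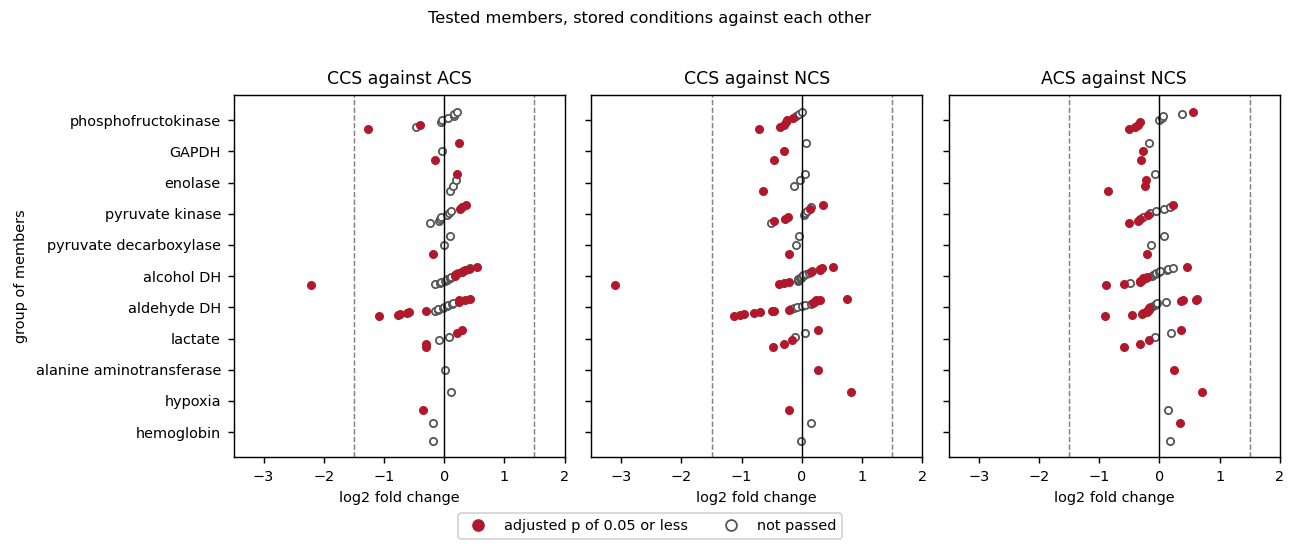
Log2 fold change (horizontal axis, log2(RPKM + 0.1) scale) of each tested member, by group of members (rows), for CCS against ACS, CCS against NCS and ACS against NCS; filled points passed the test, open points did not, and dashed lines mark a log2 fold change of 1.5 in size. The far left point in both CCS panels is the GroES-like alcohol dehydrogenase FvH4_1g16790, at -2.22 against ACS and -3.11 against NCS, and in ACS against NCS 80 of 80 members lay within 1 log2 unit, as did 92.5% of all genes.

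Of the 5 DEGs, 3 were aldehyde dehydrogenase 2C4 genes with neighbouring numbers on chromosome 1. In Arabidopsis the enzyme of this name oxidises coniferaldehyde and sinapaldehyde to ferulic and sinapic acid, and so belongs to phenylpropanoid metabolism rather than to fermentation. FvH4_1g05100 was the abundant gene of the trio, with 33.6, 29.6 and 31.7 RPKM in CCS, 46.7, 47.5 and 48.8 RPKM in ACS and 47.5, 55.8 and 51.5 RPKM in NCS, against 4.11, 2.58 and 2.48 RPKM in AH. Every stored library lay far above every AH library, and the CCS libraries lay below all ACS and NCS libraries. Its log2 fold change against AH was 3.37 ± 0.19 in CCS (SE, n = 3 each; adjusted p = 3.2e-05), 3.96 ± 0.19 in ACS (adjusted p = 1.1e-05) and 4.07 ± 0.20 in NCS (adjusted p = 1.3e-05). CCS fell below ACS by a log2 fold change of -0.59 ± 0.06 (adjusted p = 0.0018) and below NCS by -0.70 ± 0.08 (adjusted p = 6.3e-04), while ACS and NCS overlapped.

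The other 2 genes of the trio gave the same order at low levels. FvH4_1g05090 had 1.08, 0.932 and 0.787 RPKM in CCS, 1.95, 2.75 and 1.68 RPKM in ACS and 2.28, 2.37 and 1.83 RPKM in NCS, against 0.301, 0.400 and 0.370 RPKM in AH. FvH4_1g05080 had 0.301, 0.288 and 0.401 RPKM in CCS, 0.652, 0.588 and 0.594 RPKM in ACS and 0.824, 0.726 and 0.768 RPKM in NCS, against 0.0976, 0.0985 and 0.0852 RPKM in AH. In both genes the CCS libraries stood between AH and the other stored fruit with no overlap. FvH4_1g05090 was higher than in AH by 1.17 ± 0.14 in CCS (adjusted p = 7.4e-04), 2.26 ± 0.19 in ACS (adjusted p = 1.2e-04) and 2.30 ± 0.13 in NCS (adjusted p = 2.6e-05), and CCS was lower than ACS by -1.09 ± 0.19 (adjusted p = 0.0106). FvH4_1g05080 was higher than in AH by 1.88 ± 0.08 in ACS (adjusted p = 7.0e-06) and 2.17 ± 0.08 in NCS (adjusted p = 6.3e-06), and lower in CCS than in ACS by -0.74 ± 0.11 (adjusted p = 0.00578). In CCS against AH this gene was under the filter of 0.5 RPKM. At such low levels the size of a fold change depends on the pseudocount: over the alternative settings FvH4_1g05080 ran between 0.56 and 2.7 in ACS and between 0.7 and 3.03 in NCS against AH and between -0.9 and -0.28 in CCS against ACS, and FvH4_1g05090 between 1.19 and 2.54 in ACS and between 1.22 and 2.59 in NCS against AH, with each lowest size below the DEG limit. The 3 genes share a name and an arrangement in a row, and reads from near-identical stretches could have been assigned to the wrong copy, so that the low levels of the last pair are uncertain.

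Phosphofructokinase 3, FvH4_6g32610, an ATP-dependent form of the enzyme that commits hexose phosphate to glycolysis, was the DEG of the glycolytic steps. Its level was 1.64, 1.63 and 1.68 RPKM in CCS, 4.45, 4.19 and 3.73 RPKM in ACS and 2.56, 3.12 and 2.62 RPKM in NCS, against 0.771, 0.717 and 0.552 RPKM in AH. The 4 conditions did not overlap, in the order ACS, NCS, CCS and AH. Against AH the log2 fold change was 1.18 ± 0.12 in CCS (adjusted p = 4.1e-04), 2.45 ± 0.13 in ACS (adjusted p = 1.9e-05) and 1.88 ± 0.14 in NCS (adjusted p = 7.9e-05). CCS was lower than ACS by -1.27 ± 0.07 (adjusted p = 4.0e-04) and lower than NCS by -0.71 ± 0.08 (adjusted p = 6.9e-04), and ACS was higher than NCS by 0.56 ± 0.10 (adjusted p = 0.00467). Over the alternative settings the value against AH ran between 0.66 and 1.29 in CCS, between 1.61 and 2.61 in ACS and between 1.16 and 2.02 in NCS.

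FvH4_1g16790, a GroES-like zinc-binding alcohol dehydrogenase, was the member that was a DEG between CCS and the other stored fruit. A further description in the table names this gene a probable cinnamyl alcohol dehydrogenase, the enzyme that reduces hydroxycinnamaldehydes to the alcohols of lignin, so its name and that of the 2C4 genes both point outside fermentation. It had 0.123, 0.101 and 0.220 RPKM in CCS, 1.19, 0.844 and 1.08 RPKM in ACS and 2.1, 2.19 and 1.73 RPKM in NCS, against 0.0862, 0.0174 and 0.0149 RPKM in AH. These were 89 reads in all in CCS, 629 in ACS and 1109 in NCS, against 26 in AH, where AH replicate 3 held only 3. CCS lay between AH and ACS, close to AH and without overlap. CCS was lower than ACS by -2.22 ± 0.20 (adjusted p = 0.00115) and lower than NCS by -3.11 ± 0.18 (adjusted p = 4.2e-05), and ACS was lower than NCS by -0.89 ± 0.14 (adjusted p = 0.00265). Against AH the log2 fold change was 3.05 ± 0.22 in ACS (adjusted p = 6.0e-05) and 3.95 ± 0.20 in NCS (adjusted p = 1.7e-05). With so few reads in AH and CCS the size of these values depends on the pseudocount. Over the alternative settings it ran between -2.85 and -0.83 in CCS against ACS, between -3.8 and -1.39 in CCS against NCS, between 0.97 and 5.1 in ACS against AH and between 1.53 and 6.05 in NCS against AH. CCS against AH was below the filter for this gene.

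**Figure D3:**
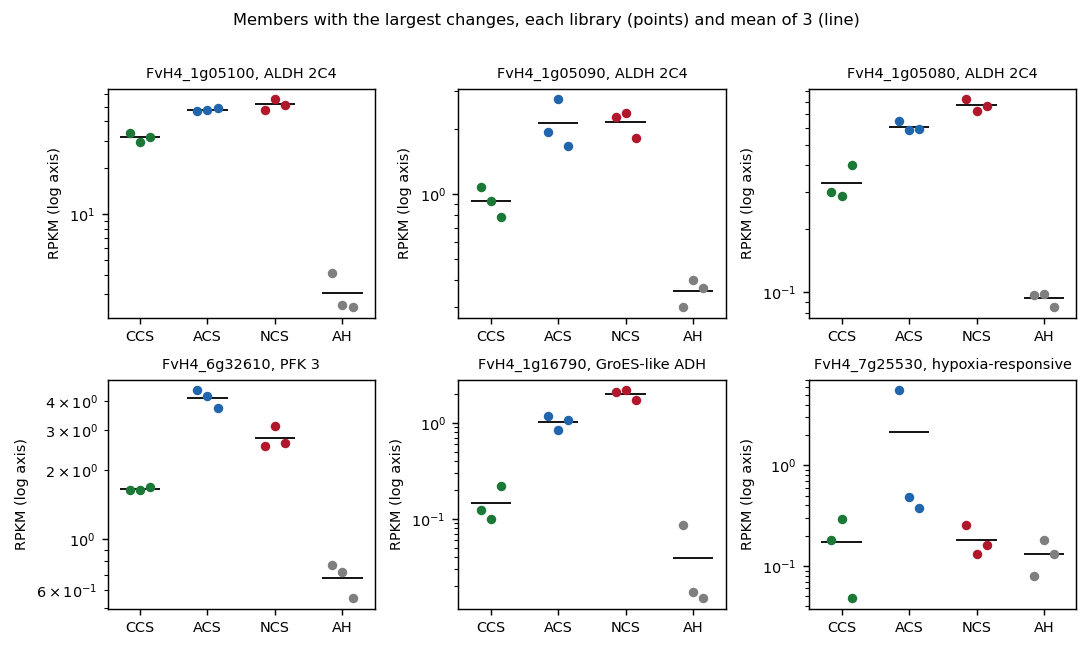
RPKM on logarithmic axes of the 5 members that were DEGs in any comparison and of FvH4_7g25530, in CCS, ACS, NCS and AH; each point is 1 library and each line the mean of 3. In the 5 DEGs the CCS libraries lie between those of AH and ACS with no overlap, and in FvH4_7g25530 the ACS library at 5.54 RPKM stands apart from all others.

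In all 5 members that were DEGs, CCS was lower than both ACS and NCS, and each of these differences passed the test in every fit that left out 1 library. Their CCS libraries did not overlap those of AH, ACS or NCS, and of all genes tested 51.7% did not overlap between CCS and AH, 47.3% between CCS and ACS and 61.8% between CCS and NCS. These shares cover either direction and genes not picked as DEGs. The 5 were picked from the same libraries, so their common arrangement is no separate support. FvH4_1g05080 and FvH4_1g16790 reached the filter in the CCS comparisons only through the ACS or NCS libraries. Some members below the DEG limit had the same arrangement. Phosphofructokinase 4, FvH4_7g26950, had 16.9, 17.9 and 18.8 RPKM in CCS, 23.5, 24.3 and 23.6 RPKM in ACS and 22.4, 22.9 and 23.3 RPKM in NCS, against 9.72, 11.5 and 12.2 RPKM in AH. It was lower in CCS than in ACS by -0.41 ± 0.06 (adjusted p = 0.00439) and higher in NCS than in AH by 1.04 ± 0.10 (adjusted p = 2.9e-04). FvH4_3g31070, an aldehyde dehydrogenase 6B2 named for methylmalonate-semialdehyde dehydrogenase of branched-chain amino acid breakdown, had 1.47, 1.22 and 1.37 RPKM in CCS, 1.92, 2.08 and 2.43 RPKM in ACS and 2.48, 2.28 and 2.52 RPKM in NCS, against 1.01, 0.929 and 0.871 RPKM in AH. In this gene CCS was lower than ACS by -0.62 ± 0.11 (adjusted p = 0.00935). FvH4_5g22210, also described as 6B2, had 2.15, 2.54 and 2.29 RPKM in CCS, 3.71, 3.66 and 4.76 RPKM in ACS and 3.44, 6.13 and 4.69 RPKM in NCS, against 2.30, 2.46 and 1.71 RPKM in AH. Here CCS overlapped AH, ACS and NCS lay above both, and CCS was lower than ACS by -0.76 ± 0.12 (adjusted p = 0.0071).

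In the first of these steps several genes were in use. Their summed level was higher in NCS than in both cold stored groups without overlap, and AH overlapped all 3. The 11 phosphofructokinases summed to 185 to 191 RPKM in CCS, 180 to 191 RPKM in ACS and 209 to 220 RPKM in NCS, against 183 to 210 RPKM in AH. The abundant members were the subunits of the pyrophosphate-dependent enzyme, which works in both directions. Its alpha subunit FvH4_5g26380 had 47.4, 48.2 and 49.0 RPKM in CCS, 39.9, 43.3 and 45.2 RPKM in ACS and 52.4, 55.0 and 52.5 RPKM in NCS, against 45.4, 55.1 and 53.6 RPKM in AH. ACS was lower than NCS without overlap (log2 fold change -0.32 ± 0.06, adjusted p = 0.00665), and AH spanned most of the other values. Its beta subunit FvH4_3g01360 had 42.3, 41.9 and 44.7 RPKM in CCS, 36.8, 39.5 and 39.3 RPKM in ACS and 50.8, 52.7 and 49.2 RPKM in NCS, against 53.1, 60.2 and 56.4 RPKM in AH. Both cold stored groups lay below NCS and AH, with a log2 fold change of -0.55 ± 0.08 in ACS against AH (adjusted p = 0.00205) and of -0.40 ± 0.05 in ACS against NCS (adjusted p = 0.00155). The call in CCS against AH (-0.39 ± 0.08, adjusted p = 0.0102) was lost without CCS replicate 2 (adjusted p = 0.0515).

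GAPDH was carried almost wholly by FvH4_4g24420, a cytosolic C2 form that held 98.7% of the summed level of its group. It was the most abundant of the 105 members, with 2220, 2080 and 2060 RPKM in CCS, 2110, 2140 and 2220 RPKM in ACS and 2540, 2670 and 2570 RPKM in NCS, against 2230, 2150 and 1940 RPKM in AH. NCS was above every other library and the other 3 conditions overlapped. CCS was lower than NCS by -0.29 ± 0.05 (adjusted p = 0.0045) and ACS lower than NCS by -0.27 ± 0.05 (adjusted p = 0.00541), whereas CCS and ACS differed by -0.03 ± 0.05 (adjusted p = 0.741). NCS was higher than AH by 0.30 ± 0.08 (adjusted p = 0.0291), a call that was lost when any of 5 of the 6 libraries was left out, with an adjusted p of up to 0.107. The plastid form FvH4_3g14640 had 23.3, 22.9 and 23.0 RPKM in CCS, 26.6, 25.4 and 25.7 RPKM in ACS and 32.0, 31.4 and 32.2 RPKM in NCS, against 26.9, 24.4 and 23.6 RPKM in AH. It too was highest in NCS, with CCS lower than NCS by -0.46 ± 0.04 (adjusted p = 2.6e-04) and ACS by -0.30 ± 0.05 (adjusted p = 0.0026). A row of 6 GAPDH genes on chromosome 6 stayed at or below 0.424 RPKM in every library.

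Glyceraldehyde 3-phosphate can also be oxidised without making ATP, by the NADP-dependent enzyme that the name aldehyde dehydrogenase 11A3 stands for in Arabidopsis. This gene, FvH4_1g01130, had 7.66, 7.54 and 7.65 RPKM in CCS, 5.53, 5.77 and 5.65 RPKM in ACS and 10.9, 10.8 and 10.5 RPKM in NCS, against 4.98, 5.87 and 5.75 RPKM in AH. ACS and AH overlapped, CCS was above both, and NCS was the highest. CCS was higher than ACS by 0.43 ± 0.04 (adjusted p = 0.00183) and lower than NCS by -0.49 ± 0.04 (adjusted p = 2.2e-04), and ACS was lower than NCS by -0.91 ± 0.05 (adjusted p = 2.7e-05).

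Enolase forms phosphoenolpyruvate, and 80.2% of its summed level came from FvH4_6g17770. This gene had 338, 316 and 312 RPKM in CCS, 296, 299 and 309 RPKM in ACS and 350, 347 and 358 RPKM in NCS, against 304, 278 and 257 RPKM in AH. NCS was the highest and ACS lay below it (-0.22 ± 0.05, adjusted p = 0.00843). NCS was higher than AH by 0.33 ± 0.09 (adjusted p = 0.0234), a call lost without AH replicate 2 or 3 or any NCS replicate (adjusted p up to 0.0891). A less abundant enolase, FvH4_7g28150, ran the other way, with 50.1, 49.2 and 49.0 RPKM in CCS, 44.5, 45.3 and 44.6 RPKM in ACS and 49.1, 46.4 and 46.5 RPKM in NCS, against 68.4, 59.3 and 55.1 RPKM in AH. All stored libraries lay below AH, and ACS against AH passed the test (-0.44 ± 0.10, adjusted p = 0.0124). NCS against AH also passed (adjusted p = 0.0304), but was lost in 4 of the 6 fits that left out 1 library (adjusted p up to 0.103). FvH4_5g12990, named for the plastid enolase of Arabidopsis, had 14.9, 16.4 and 16.9 RPKM in CCS and 12.9, 14.1 and 14.9 RPKM in ACS, 24.8, 25.8 and 24.9 RPKM in NCS and 21.0, 23.2 and 22.3 RPKM in AH. Both cold stored groups lay below NCS and AH: CCS was lower than NCS by -0.65 ± 0.06 (adjusted p = 3.2e-04) and ACS by -0.85 ± 0.07 (adjusted p = 1.5e-04).

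Pyruvate kinase, the last glycolytic step, was led by a plastid and a cytosolic gene. The plastid beta subunit FvH4_7g30750 had 57.6, 56.6 and 58.9 RPKM in CCS, 52.0, 55.5 and 56.4 RPKM in ACS and 69.3, 71.1 and 69.3 RPKM in NCS, against 64.2, 69.9 and 68.5 RPKM in AH. The cytosolic FvH4_3g45920 had 62.6, 61.4 and 61.7 RPKM in CCS, 64.0, 66.8 and 67.4 RPKM in ACS and 56.0, 57.0 and 56.0 RPKM in NCS, against 51.5, 49.8 and 48.4 RPKM in AH. The cold stored libraries were below those of NCS and AH in the plastid gene, and above them in the cytosolic gene. ACS was lower than NCS by -0.36 ± 0.05 in the plastid gene (adjusted p = 0.00207) and higher than NCS by 0.23 ± 0.05 in the cytosolic gene (adjusted p = 0.00791). CCS was lower than NCS by -0.28 ± 0.04 in the plastid gene (adjusted p = 0.00271), and the cytosolic gene's 0.14 ± 0.04 (adjusted p = 0.0342) was lost in each fit that left out 1 library, with an adjusted p of 0.062 to 0.0939, and was 0.00 after median-of-ratios scaling. FvH4_2g03100, a minor pyruvate kinase, was close to 1 log2 unit above AH in every kind of storage: it had 1.86, 1.71 and 1.94 RPKM in CCS, 1.69, 1.76 and 1.63 RPKM in ACS and 1.77, 1.70 and 1.83 RPKM in NCS, against 0.861, 0.788 and 0.803 RPKM in AH. Against AH the log2 fold change was 1.08 ± 0.08 in CCS (adjusted p = 1.1e-04), 0.97 ± 0.08 in ACS (adjusted p = 9.9e-05) and 1.02 ± 0.08 in NCS (adjusted p = 8.7e-05), and the stored conditions overlapped each other.

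**Figure D4:**
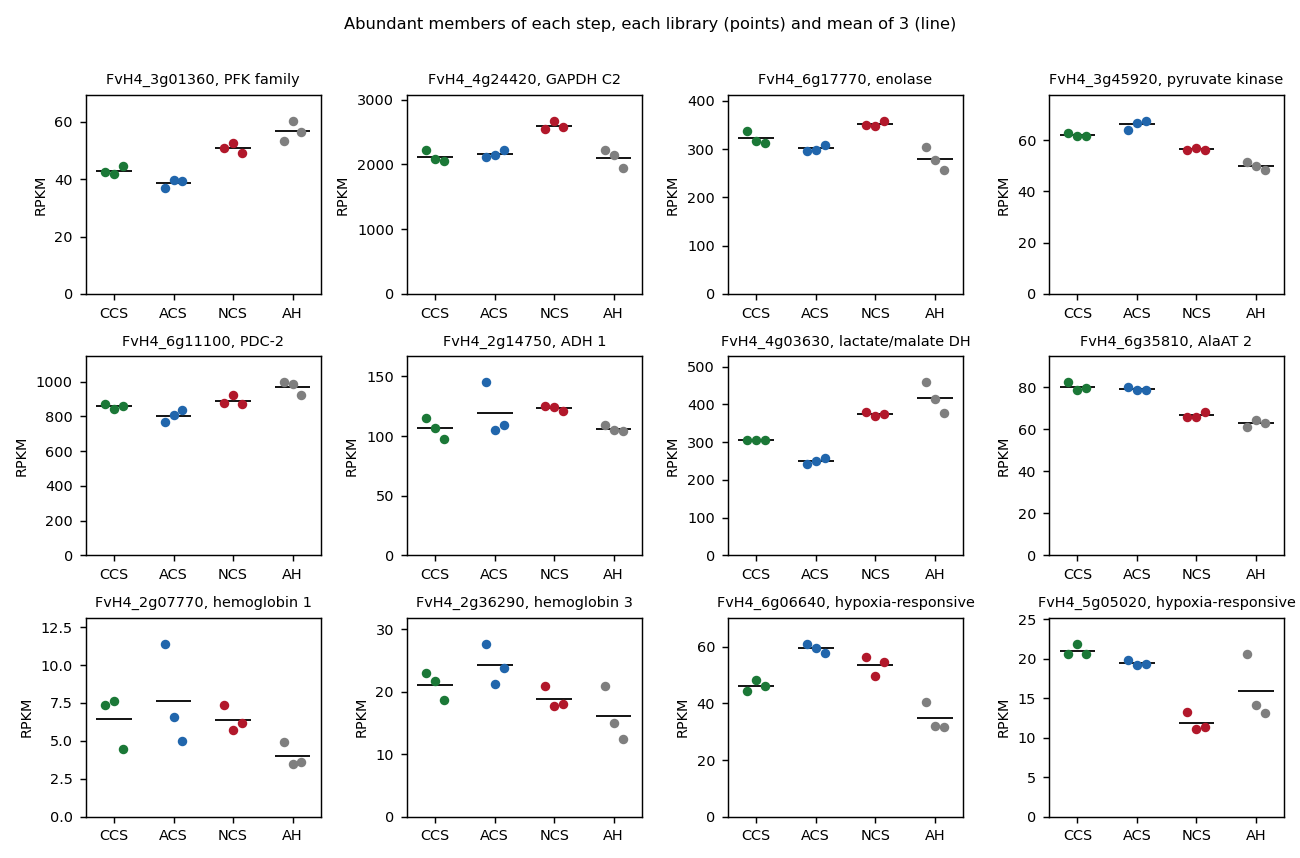
RPKM, from 0 on linear axes, of 12 abundant members of the glycolytic and fermentative steps and of the oxygen-related groups in CCS, ACS, NCS and AH; each point is 1 library and each line the mean of 3. Pyruvate decarboxylase FvH4_6g11100 lies between 770 and 996 RPKM and alcohol dehydrogenase FvH4_2g14750 between 97.9 and 145 RPKM in all 12 libraries, whereas the hypoxia-responsive gene FvH4_5g05020 is lowest in NCS.

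The steps that define ethanol fermentation were highly expressed and changed little. Pyruvate decarboxylase was carried by FvH4_6g11100, with 93.1% of the summed level of its group and 870, 841 and 861 RPKM in CCS, 770, 808 and 838 RPKM in ACS and 878, 921 and 871 RPKM in NCS, against 996, 988 and 921 RPKM in AH. The AH libraries were at or above all stored ones. CCS and ACS differed by 0.09 ± 0.05 (adjusted p = 0.228) and CCS and AH by -0.17 ± 0.07 (adjusted p = 0.116). ACS was lower than AH by -0.27 ± 0.08 (adjusted p = 0.0334), a call that was lost without any ACS replicate or AH replicate 2, with an adjusted p of up to 0.115. The second gene, FvH4_3g08040, had 31.9, 31.1 and 32.7 RPKM in CCS, 31.0, 31.4 and 34.2 RPKM in ACS and 36.8, 38.1 and 36.6 RPKM in NCS, against 28.0, 33.4 and 30.6 RPKM in AH. It was highest in NCS, with CCS lower than NCS by -0.22 ± 0.05 (adjusted p = 0.00842), and CCS and ACS differed by -0.01 ± 0.06 (adjusted p = 0.884). The third, FvH4_1g28990, was described elsewhere in the table as a 2-hydroxyacyl-CoA lyase, and the fourth, FvH4_3g39060, never exceeded 0.0136 RPKM.

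Alcohol dehydrogenase 1, the enzyme that makes ethanol, had 2 neighbouring genes. FvH4_2g14750 had 115, 107 and 97.9 RPKM in CCS, 145, 105 and 109 RPKM in ACS and 125, 124 and 121 RPKM in NCS, against 109, 105 and 104 RPKM in AH. ACS replicate 1 stood above all other libraries, and otherwise the values ran from 97.9 to 125 RPKM. The log2 fold change was 0.01 ± 0.09 in CCS against AH (adjusted p = 0.955), -0.15 ± 0.14 in CCS against ACS (adjusted p = 0.433) and 0.16 ± 0.13 in ACS against AH (adjusted p = 0.381). NCS passed against AH (0.22 ± 0.07, adjusted p = 0.0493) and CCS against NCS (-0.21 ± 0.07, adjusted p = 0.0418), but either call was lost in 5 of the 6 fits that left out 1 library, with an adjusted p of up to 0.17 and 0.11. FvH4_2g14760 was far lower, at 5.75, 5.41 and 5.37 RPKM in CCS, 4.76, 5.05 and 4.30 RPKM in ACS and 5.39, 5.88 and 6.01 RPKM in NCS, against 7.23, 6.4 and 6.16 RPKM in AH. All stored libraries were below AH in this gene, and ACS passed the test (-0.48 ± 0.10, adjusted p = 0.00905).

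Over the whole alcohol dehydrogenase group, with 5 tested Myb/SANT-like genes counted in, more genes were lower than higher against AH. In CCS against AH 5 of 19 tested genes were lower and none was higher, where 13.9% of all genes were lower and 23.6% higher. In ACS 9 of 20 were lower and 1 was higher, where 20.9% and 21.9% of all genes were, and in NCS 6 of 20 were lower and 2 higher, where 21.4% and 14.7% of all genes were. With median-of-ratios scaling the lower and higher genes numbered 9 and 0 in CCS, 9 and 1 in ACS and 4 and 2 in NCS. Of all genes that passed under that scaling, 52.6%, 51.3% and 49.9% were higher, in the same order. Of the 5 Myb/SANT-like genes, 1 was lower in NCS and none passed in CCS or ACS. The most abundant gene of the group, FvH4_7g26290, described elsewhere in the table as a quinone oxidoreductase-like protein, had 743, 679 and 717 RPKM in CCS, 714, 750 and 785 RPKM in ACS and 845, 908 and 882 RPKM in NCS, against 823, 843 and 780 RPKM in AH. NCS was highest, but its lowest library at 845 RPKM was close to the AH library at 843 RPKM, and NCS against AH did not pass the test. CCS was lower than NCS by -0.30 ± 0.06 (adjusted p = 0.00535). ACS also passed as lower than NCS (adjusted p = 0.0176), a call lost in 3 of the 6 fits that left out 1 library.

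Among these families FvH4_7g28870, described elsewhere in the table as an L-idonate 5-dehydrogenase, fell in every kind of storage, with 29.8, 29.4 and 26.8 RPKM in CCS, 25.8, 21.1 and 22.2 RPKM in ACS and 27.6, 29.6 and 29.3 RPKM in NCS, against 51.5, 48.0 and 44.9 RPKM in AH. All stored libraries lay well below AH, by -0.75 ± 0.09 in CCS (adjusted p = 8.4e-04), -1.07 ± 0.11 in ACS (adjusted p = 2.9e-04) and -0.74 ± 0.08 in NCS (adjusted p = 6.1e-04). FvH4_2g05132, a further gene named elsewhere in the table as a probable cinnamyl alcohol dehydrogenase, had 53.5, 52.0 and 49.8 RPKM in CCS, 39.3, 37.7 and 38.8 RPKM in ACS and 48.2, 44.8 and 46.5 RPKM in NCS, against 84.5, 68.0 and 64.2 RPKM in AH. It ran opposite to FvH4_1g16790, being lower in ACS than in AH by -0.89 ± 0.12 (adjusted p = 0.00107) and higher in CCS than in ACS by 0.42 ± 0.05 (adjusted p = 0.00278). FvH4_2g37710, of the zinc-binding family, had 1.08, 1.38 and 1.18 RPKM in CCS, 1.03, 0.569 and 1.11 RPKM in ACS and 0.997, 1.33 and 1.5 RPKM in NCS, against 2.50, 2.04 and 2.07 RPKM in AH, and the stored conditions overlapped each other but not AH.

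Aldehyde dehydrogenases oxidise acetaldehyde and other aldehydes to acids, and the group as a whole did not move one way. In CCS against AH 6 of 19 tested members of the group passed as higher and 3 as lower, where 23.6% of all genes were higher and 13.9% lower. In ACS 9 of 20 passed as higher and 7 as lower, where 21.9% and 20.9% of all genes did, and in NCS 6 of 20 as higher and 3 as lower, where 14.7% and 21.4% did. The tested 2C4 genes were among the higher ones. The most abundant, FvH4_1g08890 of type 7B4, had 121, 119 and 126 RPKM in CCS, 117, 118 and 121 RPKM in ACS and 133, 128 and 140 RPKM in NCS, against 114, 125 and 130 RPKM in AH. All 3 stored conditions overlapped AH, and only ACS against NCS passed the test (-0.17 ± 0.05, adjusted p = 0.0354), a call lost in 5 of the 6 fits that left out 1 library, with an adjusted p of up to 0.109. FvH4_5g16350 of type 10A8 had 53.3, 51.2 and 51.8 RPKM in CCS, 43.0, 42.9 and 46.9 RPKM in ACS and 50.2, 49.2 and 50.4 RPKM in NCS, against 53.0, 55.5 and 54.3 RPKM in AH. ACS was the lowest, at -0.29 ± 0.08 against AH (adjusted p = 0.0217), but without ACS replicate 1 or 2 or AH replicate 2 the call was lost (adjusted p up to 0.101).

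The type 2B genes are named for the mitochondrial enzymes that can oxidise acetaldehyde formed in fermentation, and their 2 members differed from each other. FvH4_5g05130 of type 2B4 had 35.3, 34.1 and 32.7 RPKM in CCS, 27.8, 28.4 and 29.5 RPKM in ACS and 30.3, 29.8 and 28.8 RPKM in NCS, against 41.6, 36.9 and 36.2 RPKM in AH. FvH4_4g34660 of type 2B7 had 2.20, 2.12 and 2.09 RPKM in CCS, 2.67, 2.59 and 2.75 RPKM in ACS and 1.67, 1.74 and 1.74 RPKM in NCS, against 1.69, 1.66 and 1.63 RPKM in AH. In the abundant 2B4 gene all stored libraries lay below AH, and in the minor 2B7 gene both cold stored groups lay above NCS and AH. The 2B4 gene was lower in ACS than in AH by -0.42 ± 0.09 (adjusted p = 0.00809). The 2B7 gene was higher in CCS than in NCS by 0.30 ± 0.05 (adjusted p = 0.00243), higher in ACS than in NCS by 0.61 ± 0.05 (adjusted p = 1.7e-04) and lower in CCS than in ACS by -0.31 ± 0.05 (adjusted p = 0.00802).

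Of the 8 genes with the word lactate, 6 belonged to the lactate/malate dehydrogenase family, and the abundant ones were not described as lactate dehydrogenases. FvH4_4g03630, a cytoplasmic malate dehydrogenase by its other description, had 305, 305 and 306 RPKM in CCS, 241, 249 and 257 RPKM in ACS and 380, 370 and 374 RPKM in NCS, against 458, 413 and 377 RPKM in AH. Both cold stored groups lay below NCS and AH, with ACS the lowest. The CCS level was lower than AH by -0.44 ± 0.09 (adjusted p = 0.0102), ACS was lower than AH by -0.74 ± 0.10 (adjusted p = 9.9e-04), and CCS was higher than ACS by 0.29 ± 0.05 (adjusted p = 0.00758). FvH4_3g18670 had 182, 183 and 187 RPKM in CCS, 154, 158 and 165 RPKM in ACS and 203, 198 and 195 RPKM in NCS, against 211, 212 and 201 RPKM in AH. It had the same order of cold stored groups, and ACS was lower than AH by -0.39 ± 0.07 (adjusted p = 0.00592) and lower than NCS by -0.32 ± 0.05 (adjusted p = 0.00263).

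The tested gene that the table describes as an L-lactate dehydrogenase, FvH4_5g00090, had 26.2, 23.1 and 23.9 RPKM in CCS, 31.4, 29.8 and 29.3 RPKM in ACS and 22.7, 24.5 and 23.4 RPKM in NCS, against 23.9, 21.5 and 18.7 RPKM in AH. ACS stood above all other libraries, and CCS overlapped both NCS and AH. ACS was higher than AH by 0.50 ± 0.11 (adjusted p = 0.01) and higher than NCS by 0.36 ± 0.05 (adjusted p = 0.00251). CCS was lower than ACS by -0.31 ± 0.06 (adjusted p = 0.0182), a call lost without ACS replicate 1 or 2 or CCS replicate 2 or 3 (adjusted p up to 0.0617). Acetolactate synthase starts the synthesis of branched-chain amino acids, and its small subunit FvH4_1g00350 had 12.4, 11.9 and 12.6 RPKM in CCS, 15.9, 14.8 and 14.9 RPKM in ACS and 18.0, 16.7 and 16.9 RPKM in NCS, against 10.9, 10.9 and 10.7 RPKM in AH. No conditions overlapped in this gene, and CCS was lower than ACS by -0.30 ± 0.05 (adjusted p = 0.0106) and lower than NCS by -0.48 ± 0.05 (adjusted p = 5.7e-04).

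Alanine aminotransferase, which stores pyruvate as alanine under low oxygen, had 1 gene, and it was higher after cold storage with or without CO2. FvH4_6g35810 had 82.3, 78.5 and 79.5 RPKM in CCS, 80.3, 78.5 and 78.5 RPKM in ACS and 65.9, 65.9 and 68.0 RPKM in NCS, against 61.2, 64.2 and 63.0 RPKM in AH. The cold stored groups overlapped each other and lay above every NCS and AH library. The log2 fold change against AH was 0.35 ± 0.07 in CCS (adjusted p = 0.00931) and 0.33 ± 0.07 in ACS (adjusted p = 0.00917). CCS and ACS differed by 0.02 ± 0.05 (adjusted p = 0.793). CCS was higher than NCS by 0.27 ± 0.05 (adjusted p = 0.0038), and with median-of-ratios scaling by 0.13 (adjusted p = 0.0661).

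Hypoxia-responsive family genes are named for induction by low oxygen in Arabidopsis. FvH4_6g06640 had 44.5, 48.3 and 46.0 RPKM in CCS, 61.0, 59.6 and 57.6 RPKM in ACS and 56.3, 49.6 and 54.5 RPKM in NCS, against 40.4, 32.1 and 31.7 RPKM in AH. Stored fruit lay above AH, with CCS nearest to it. ACS was higher than AH by 0.78 ± 0.11 (adjusted p = 0.00167) and NCS by 0.63 ± 0.12 (adjusted p = 0.00598), and CCS was lower than ACS by -0.36 ± 0.05 (adjusted p = 0.00611). The call of CCS against AH (0.42 ± 0.11, adjusted p = 0.0279) was lost in 5 of the 6 fits that left out 1 library, with an adjusted p of up to 0.102.

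FvH4_5g05020, which also carries a RING finger, had 20.6, 21.9 and 20.6 RPKM in CCS, 19.8, 19.2 and 19.4 RPKM in ACS and 13.3, 11.1 and 11.4 RPKM in NCS, against 20.6, 14.2 and 13.1 RPKM in AH. Cold stored fruit lay above NCS, and AH replicate 1 stood with the cold stored libraries. CCS was higher than NCS by 0.82 ± 0.08 (adjusted p = 3.6e-04) and ACS by 0.71 ± 0.08 (adjusted p = 6.7e-04). The third gene, FvH4_7g25530, had 0.181, 0.291 and 0.0478 RPKM in CCS, 5.54, 0.484 and 0.378 RPKM in ACS and 0.253, 0.133 and 0.163 RPKM in NCS, against 0.0799, 0.180 and 0.133 RPKM in AH. ACS replicate 1 held 809 of its 902 ACS reads, so the gene was below the filter and not tested.

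Hemoglobins of plants bind oxygen and scavenge nitric oxide, and the non-symbiotic class 1 form is a known low-oxygen gene in many species. Hemoglobin 1, FvH4_2g07770, had 7.35, 7.60 and 4.45 RPKM in CCS, 11.4, 6.59 and 4.97 RPKM in ACS and 7.34, 5.71 and 6.15 RPKM in NCS, against 4.95, 3.50 and 3.60 RPKM in AH. The replicates of the cold stored groups spread widely, and CCS overlapped AH. NCS was higher than AH by 0.67 ± 0.16 (adjusted p = 0.0172), a call lost without NCS replicate 1 (adjusted p = 0.0641) or AH replicate 2 (adjusted p = 0.0643), while CCS differed from ACS by -0.19 ± 0.34 (adjusted p = 0.705). Hemoglobin 3, FvH4_2g36290, a truncated form by its other description, had 23.0, 21.7 and 18.7 RPKM in CCS, 27.7, 21.3 and 23.8 RPKM in ACS and 21.0, 17.8 and 18.0 RPKM in NCS, against 21.0, 15.0 and 12.4 RPKM in AH. ACS passed against AH (0.61 ± 0.20, adjusted p = 0.0496) and against NCS (0.35 ± 0.11, adjusted p = 0.0424), but these calls were lost in 5 and 4 of the 6 fits that left out 1 library, both without ACS replicate 1 (adjusted p = 0.15 and 0.0943).

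Genes next to these steps were taken from further lists of 85 genes, among them hexokinase, malic enzyme, phosphoenolpyruvate carboxylase, glutamate decarboxylase and alternative oxidase. In CCS against AH 14 of 58 tested were higher and 15 lower, or 50.0% in all against 37.5% of all genes. In ACS against AH 15 of 57 were higher and 24 lower, or 68.4% against 42.8%, and in NCS against AH 9 of 55 were higher and 13 lower, or 40.0% against 36.1%. In CCS against ACS 10 of 58 were higher and 4 lower, or 24.1% against 28.7%, and the split became 2 higher and 6 lower under median-of-ratios scaling. Of all genes that passed in CCS against ACS, 64.2% were higher unscaled and 42.1% scaled. DEGs against AH made up 5.17% of the tested genes of these lists in CCS, 7.02% in ACS and 5.45% in NCS, where the shares of all genes were 6.62%, 8.55% and 6.34%. Of the 4 genes that were DEGs in any comparison, 3 lay far above AH in some kind of storage.

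Glutamate decarboxylase FvH4_1g30330 makes 4-aminobutyrate, which is known to build up in fruit under high CO2. It had 11.9, 11.3 and 11.8 RPKM in CCS, 18.9, 18.8 and 18.5 RPKM in ACS and 25.3, 24.9 and 25.8 RPKM in NCS, against 1.72, 1.53 and 1.76 RPKM in AH. The conditions did not overlap, and CCS stood between AH and the other stored fruit, as in the aldehyde dehydrogenase 2C4 genes. NCS lay above ACS here, whereas the 2 overlapped in FvH4_1g05100 and FvH4_1g05090. The log2 fold change against AH was 2.73 ± 0.08 in CCS (adjusted p = 3.3e-06), and CCS and ACS differed by -0.68 ± 0.05 (adjusted p = 4.8e-04). Alternative oxidase, a bypass of the mitochondrial electron chain, was higher after storage through FvH4_4g05930, with 80.9, 78.8 and 80.2 RPKM in CCS, 118, 117 and 116 RPKM in ACS and 70.4, 66.4 and 70.2 RPKM in NCS, against 16.4, 11 and 8.08 RPKM in AH. It was lower in CCS than in ACS by -0.55 ± 0.04 (adjusted p = 7.3e-04), and both lay above NCS.

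A second alternative oxidase, FvH4_5g24160, was high in the cold stored groups alone among these 4 conditions, with 2.37, 1.94 and 1.85 RPKM in CCS, 1.67, 2.69 and 2.03 RPKM in ACS and 0.327, 0.301 and 0.336 RPKM in NCS, against 0.217, 0.238 and 0.322 RPKM in AH. CCS was higher than NCS by 2.35 ± 0.10 (adjusted p = 1.0e-05), and CCS and ACS overlapped. Phosphoenolpyruvate carboxylase kinase 1, FvH4_6g02090, which activates the enzyme that draws phosphoenolpyruvate towards malate, fell, with 3.94, 3.44 and 3.65 RPKM in CCS, 2.37, 2.03 and 2.06 RPKM in ACS and 2.18, 1.95 and 2.09 RPKM in NCS, against 9.37, 9.31 and 8.36 RPKM in AH. CCS stood between AH and the other stored fruit here as well, above ACS by 0.75 ± 0.08 (adjusted p = 0.00221). Of these 4 genes, all but FvH4_4g05930 were chosen after their values were seen.

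**Figure D5:**
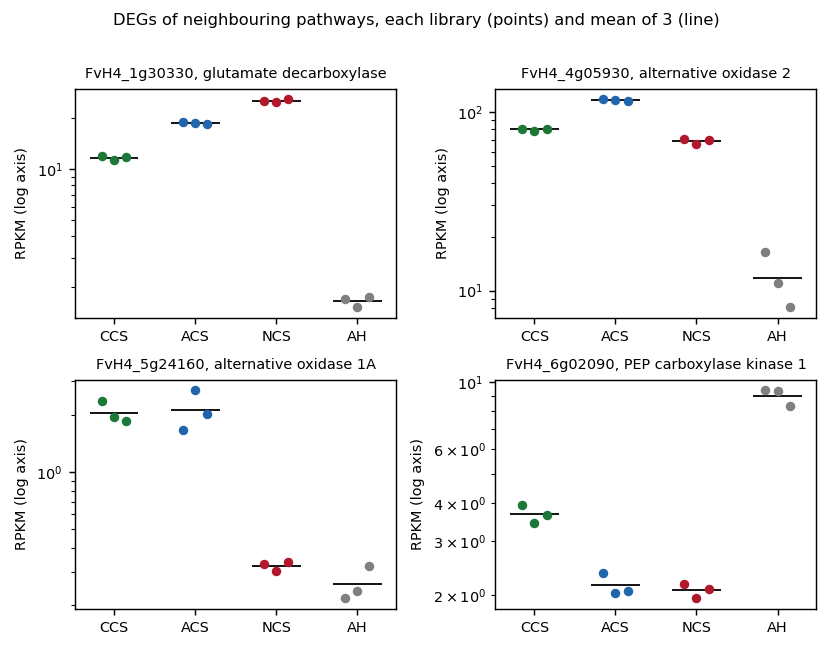
RPKM on logarithmic axes of the 4 DEGs among the further genes (glutamate decarboxylase, alternative oxidases 2 and 1A, and phosphoenolpyruvate carboxylase kinase 1) in CCS, ACS, NCS and AH; each point is 1 library and each line the mean of 3. Glutamate decarboxylase lies at 11.3 to 11.9 RPKM in CCS against 1.53 to 1.76 RPKM in AH, and alternative oxidase 1A is at or above 1.67 RPKM in both cold stored groups, against at most 0.336 RPKM in NCS and AH.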

How the data were processed

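Per the submitters' processing notes, CASAVA 1.8, FastQC, cutadapt 1.16.6 and HISAT2 2.1.0 were used. By the study's methods, reads were aligned to the Fragaria vesca genome and quantified over transcripts in SeqMonk, corrected for library total and length. The authors deposited 1 table of RPKM values for 12 libraries and 34008 genes with descriptions. It also holds log2 fold change columns that the authors deposited for their own comparisons, and these were not used. Reads were counted without regard to strand, so overlapping and antisense genes cannot be told apart. RPKM values were whole multiples of the value of 1 read, within a tolerance of 0.004, in 28792 of 28792 genes above 0 in at least 3 libraries, and 94.9 to 96.8% of reads fell on genes. Levels of different genes are per base of the recovered gene length.

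Each comparison used limma 3.58.1 in R 4.3.3 on log2(RPKM + 0.1) of its 6 libraries, for genes of at least 0.5 RPKM in 3 of them, with Benjamini-Hochberg adjustment over all genes tested. Nothing in the table ties a replicate to separate plants, so p-values measure the spread between these pools. The script was tested on simulated data. Replicate numbers are shared by all conditions, but the mean correlation of same-numbered deviations ran from -0.19 in ACS against AH to 0.24 in CCS against ACS, and in no comparison was every pair over 0.1, so the libraries were treated as unpaired. Alternatives were another pseudocount, other filters, median-of-ratios scaling, a replicate block, 1 fit of all 12 libraries, limma with a trend, voom on recovered reads and leaving out each library. A rule named 26 genes: the 2 most abundant of each group (at least 1 RPKM on average), all DEGs, and members that passed the test and moved by 1 log2 unit or more in CCS against ACS. Other genes given with values were chosen after their values were seen. Members, lists and tests were chosen with earlier results of these data known. No sequences were used. Python 3.11.15, numpy 2.4.6, pandas 2.3.3 and matplotlib 3.10.9 made the tables and figures.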

Additional observations from a re-analysis of the deposited data

How the results depend on the processing

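For the 26 members named by the rule, 84 calls gave 1168 values under the alternatives, of which 1001 stayed past the threshold in the same direction, 167 no longer passed and 0 reversed. Of the 664 values that kept all libraries, 610 still passed. Under median-of-ratios scaling, members lower in NCS than in AH numbered 7, members lower in CCS than in AH 23, members higher in CCS than in NCS 6 and members higher in CCS than in ACS 8. Of all genes that passed under that scaling, 49.9%, 52.6%, 50.3% and 42.1% were higher, in the order of these comparisons. Against AH, a joint fit of all 12 libraries gave 21 lower members for NCS and 24 for CCS, and without a filter 9 members were higher in CCS than in ACS. With a pseudocount of 1 RPKM the DEGs numbered 2 in NCS against AH, 2 in ACS against AH, 0 in CCS against NCS and 0 in CCS against ACS; with a filter of 1 RPKM they numbered 3 in ACS against AH and 0 in CCS against ACS, since low genes are shrunk or not tested. Leaving out 1 library gave 13 to 26 members higher and 6 to 19 lower in NCS against AH, 6 to 19 lower in CCS against AH, 9 to 12 higher in CCS against NCS and 8 to 16 higher in CCS against ACS, and no count of DEGs moved. The numbers do not pair the libraries. With a replicate block 18 of the 84 calls no longer passed, and 9 members were lower in CCS than in AH. Summed levels reversed where 1 gene carries a group: without the most abundant member, pyruvate decarboxylase stood at 0.25 in ACS and 0.15 in CCS against AH, where the whole group stood at -0.23 and -0.16, and enolase at -0.20 in NCS against AH, where the whole group stood at 0.22 (log2 ratios). Under median-of-ratios scaling the aldehyde dehydrogenase sum in CCS against AH was -0.00234, against 0.08 unscaled. The cause of the other shifts was not tested. At the depth of these libraries, 10 reads on a gene of median length stand for up to 0.0596 RPKM, which limits genes such as FvH4_1g16790 in AH.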

Other observations

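NADP-malic enzyme 3, FvH4_2g35330, which converts malate to pyruvate and was the most abundant of its list, had 267, 248 and 272 RPKM in CCS, 270, 292 and 296 RPKM in ACS and 289, 311 and 316 RPKM in NCS, against 106, 122 and 125 RPKM in AH. All stored libraries lay far above AH, with a limma log2 fold change of 1.16 ± 0.10 in CCS (adjusted p = 1.5e-04), 1.28 ± 0.10 in ACS (adjusted p = 7.3e-05) and 1.38 ± 0.09 in NCS (adjusted p = 5.7e-05).

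Some libraries held genes that were far higher there than in the other libraries of the same condition. Such a gene had at least 100 reads in 1 library and at least 5 times the level of each other library of its condition. Only genes above 0 in another library of the condition were counted. They numbered 12 in ACS replicate 1 and 33 in AH replicate 3, against 0 to 3 in the other libraries. FvH4_7g25530 was the member among them, in ACS replicate 1.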
